A study of Rattus norvegicus with 4 samples.

Results

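The integrated stress response genes Atf4, Ddit3, Trib3, Asns and Hspa5 were followed over 4 libraries of untreated FRT cells. FRT is an epithelial line from Fischer rat thyroid that grows as a polarised monolayer. The 5 genes were selected by Ensembl ID from the 32754 gene IDs of the count files, because Trib3 was high in replicates 1 and 3 and the question was whether the others moved with it and whether Hspa5 followed. The selection used the Trib3 values of these same libraries, so the values below are a description and no test was read from them. The files carry IDs without symbols, and no table used here pairs them; the symbols are those given with the IDs when the genes were chosen.

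All 4 libraries came from separate preparations of the same line, grown in a modified Ham's F12 medium with fetal bovine serum, with no agent added and no second condition. They are labelled as biological replicates 1 to 4, and the labels give no passage, density or harvest time. RNA was measured by 3' end sequencing, which reads the end of each transcript whatever its length, so levels were not divided by length. Thyroid, epithelial and other cell type markers, which are listed by symbol, were not analysed here. Fewer cells in a given state and less RNA per cell cannot be told apart in such bulk samples.

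The integrated stress response starts when a stress-sensing kinase phosphorylates the initiation factor eIF2, which slows general translation while the mRNA of the transcription factor ATF4 is translated more. ATF4 acts on genes of amino acid supply and on further regulators, among them Ddit3 and Trib3. The unfolded protein response of the endoplasmic reticulum (ER) feeds into this pathway through the kinase PERK, and also raises ER chaperones such as Hspa5 through the factors ATF6 and XBP1. Hspa5 is therefore commonly read as a marker of ER load, and Asns as a marker of amino acid shortage.

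Promoters are shown for the pair of genes with the widest range between libraries, Trib3 and Ddit3, and for the ER chaperone Hspa5, since these are the genes whose courses are compared. The sequences are RefSeq windows of the assembly GRCr8, 250 bases before to 50 after the annotated start, written 5′ to 3′ on the gene's strand, while the counts were made on rn6. Capitals mark either the element TGATGNAA, a core of the C/EBP-ATF response element bound by ATF4, or the ER stress element, CCAAT and CCACG separated by 9 bases; both strands were searched.
Trib3, chr3:161275484-161275783, minus strand: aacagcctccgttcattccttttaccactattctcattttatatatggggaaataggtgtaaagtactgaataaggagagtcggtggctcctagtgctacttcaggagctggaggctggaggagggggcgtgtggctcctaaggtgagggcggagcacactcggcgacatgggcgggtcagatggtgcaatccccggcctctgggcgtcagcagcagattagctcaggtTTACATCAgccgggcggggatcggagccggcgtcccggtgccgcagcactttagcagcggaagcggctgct
Ddit3, chr7:65001445-65001744, plus strand: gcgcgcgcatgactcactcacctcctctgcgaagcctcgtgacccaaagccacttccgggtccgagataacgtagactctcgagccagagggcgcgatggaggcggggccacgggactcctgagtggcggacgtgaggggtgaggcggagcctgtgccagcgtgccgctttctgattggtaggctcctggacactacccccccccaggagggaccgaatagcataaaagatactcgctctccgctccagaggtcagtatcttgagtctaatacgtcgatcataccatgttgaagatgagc
Hspa5, chr3:38452766-38453065, plus strand: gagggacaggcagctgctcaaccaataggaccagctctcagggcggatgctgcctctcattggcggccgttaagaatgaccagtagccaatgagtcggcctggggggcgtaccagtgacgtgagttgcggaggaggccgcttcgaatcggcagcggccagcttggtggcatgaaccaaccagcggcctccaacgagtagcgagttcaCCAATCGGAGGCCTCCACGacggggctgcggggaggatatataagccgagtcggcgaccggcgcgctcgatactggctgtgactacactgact

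All 5 genes were matched by symbol in the promoter table. The ATF4 element was found in the Trib3 window, on the opposite strand from position -21 to -14 before the start, and in none of the other 4. It was present in 3.98% of the 33469 windows of the table. An exact match to the ER stress element was found in the Hspa5 window, from position -43 to -25, and in none of the other 4, against 0.0657% of all windows. Only exact matches were counted. The Ddit3 window holds a near match on the opposite strand, CCAAT and GCACG separated by 9 bases, with G in place of the first C of CCACG. How often such near matches occur in the windows was not tested. The CCACG part alone, which overlaps the full element in Hspa5, occurred in 4 of the 5 windows and in 31.6% of all windows. A match describes these letters only, and elements outside the window were not searched.

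Atf4 (ENSRNOG00000017801) encodes the transcription factor at the centre of the pathway. It was measured at 1296 CPM (counts per 1000000 gene counts) in replicate 1, 499.7 CPM in replicate 2, 1243 CPM in replicate 3 and 683.5 CPM in replicate 4, with a mean of 930.5 CPM ± 399 (SD, n = 4). Replicates 1 and 3 were high and differed little after scaling by edgeR's trimmed mean of M values (TMM), with a ratio of 0.955 for replicate 1 over 3 (95% exact binomial interval 0.895 to 1.02), while replicates 2 and 4 were low. With TMM scaling the highest library, replicate 3 (replicate 1 with deposited totals), stood 2.33-fold above the lowest, replicate 2 (interval 2.16 to 2.51). A fold range at least as large was found in 23.3% of the 5072 genes averaging 20 CPM or more, so the size of the Atf4 range was not rare among genes of this line.

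Ddit3 (ENSRNOG00000006789) encodes CHOP, a transcription factor of the C/EBP family that is induced downstream of ATF4 and promotes cell death under lasting stress. Its level was 369.4 CPM in replicate 1, 100.5 CPM in replicate 2, 279 CPM in replicate 3 and 78.4 CPM in replicate 4, and its mean was 206.8 CPM ± 141 (SD, n = 4). The high libraries were again replicates 1 and 3, and the lowest was replicate 4. The TMM-scaled fold range was 5.17 (interval 4.12 to 6.54), and 3.04% of genes at 20 CPM or more had one as large. Without replicate 4 it was 3.18. Among the 1174 genes whose mean lay within 2-fold of that of Ddit3, 22 had such a range, Ddit3 included.

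Trib3 (ENSRNOG00000007319) encodes a pseudokinase that binds ATF4 and CHOP and the kinase AKT, and is itself a target of both factors. It stood at 1077 CPM in replicate 1 (95% exact Poisson interval 1021 to 1135) and at 1197 CPM in replicate 3 (1145 to 1250). In replicates 2 and 4 it was 109 CPM (95.05 to 125) and 79.3 CPM (63.9 to 97.3). These intervals cover counting error only, and they leave the pair of high libraries far from the pair of low ones. Replicate 3 lay above replicate 1 (TMM-scaled ratio of 1 over 3, 0.824, interval 0.769 to 0.882), and replicate 2 above replicate 4 (ratio of 2 over 4, 1.76, interval 1.37 to 2.27). The fold range was 18.1 (interval 14.7 to 22.5), or 10.4 without replicate 4. A range as large was found in 19 of the genes at 20 CPM or more (0.375%), Trib3 included. Of the 322 genes within 2-fold of its mean only 1, Trib3 itself, had a range that large.

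Asns (ENSRNOG00000007546) encodes asparagine synthetase, the enzyme that makes asparagine from aspartate and glutamine. Only 35, 24, 27 and 21 counts were obtained in replicates 1 to 4, equal to 26.8, 12.005, 16.2 and 18.1 CPM. Replicate 1 was highest, with a 95% exact Poisson interval of 18.7 to 37.3 CPM, and replicate 2 lowest, with 7.69 to 17.9 CPM. The intervals of replicates 3 and 4 overlapped both. The TMM-scaled fold range was 1.91 (interval 1.11 to 3.36), or 1.27 without replicate 1. With 107 counts in all, a range of the size seen in Atf4 lay within the interval over all 4 libraries and one of the size seen in Trib3 outside it. This interval makes no allowance for picking the highest and lowest library, so its lower end above 1 is not evidence of a difference.

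Hspa5 (ENSRNOG00000018294) encodes BiP, the HSP70 chaperone of the ER that holds the stress sensors inactive until unfolded proteins draw it away. Its level was 1032 CPM in replicate 1, 345.1 CPM in replicate 2, 887.2 CPM in replicate 3 and 667.1 CPM in replicate 4, with a mean of 732.7 CPM ± 299 (SD, n = 4). Replicates 1 and 3 were again the highest, but replicate 4 lay between them and replicate 2. The TMM-scaled fold range was 2.56 (interval 2.33 to 2.81), and 17.2% of genes at 20 CPM or more had one as large. Without replicate 2 it was 1.70.

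**Figure D1:**
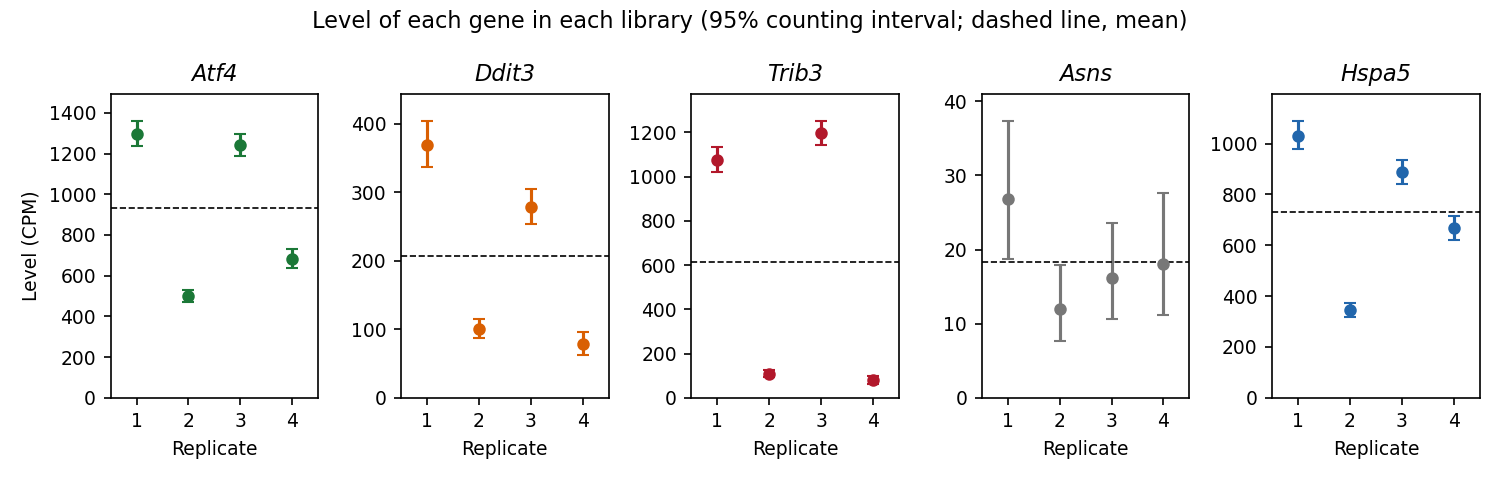
Level in CPM (vertical axis, linear, from 0 in each panel) of the 5 genes in replicates 1 to 4 (horizontal axis). Points are single libraries, bars are 95% exact Poisson intervals of the count and the dashed line is the mean; Trib3 is at 1077 and 1197 CPM in replicates 1 and 3 and at 109 and 79.3 CPM in replicates 2 and 4, while the Hspa5 value of replicate 4, 667.1 CPM, lies between.

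The genes shared the same high libraries. After TMM scaling, replicates 1 and 3 were both above replicates 2 and 4 in 5 of 5 genes, where 19.5% of the genes at 20 CPM or more had that order. The order is the one by which Trib3 was chosen, and for Asns it rests on a ratio of 1.07 between neighbouring libraries and was not kept with deposited totals, which placed replicate 4 above replicate 3. Both replicates 1 and 3 were at least 1.5 times both others in 4 of 5 genes, all but Asns, against 2.43% of the genes at 20 CPM or more. With deposited totals the gap of Hspa5 was 1.33 and 3 of 5 genes remained, against 2.03% of genes; with the other 2 scalings tried, the gap of Hspa5 was 1.58 and 1.64. With TMM scaling, the lower of the high libraries exceeded the higher of the low ones 8.45-fold for Trib3, 2.59-fold for Ddit3, 2.08-fold for Atf4 and 1.59-fold for Hspa5. A gap at least as large as that of Atf4 was found in 25 of the 5072 genes, as large as that of Ddit3 in 10, and as large as that of Hspa5 in 87, the named gene included in each count. Asns, at a mean of 18.3 CPM, was under the 20 CPM limit of these counts, which the other 4 genes passed.

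That order was not peculiar to a few genes of the line. With TMM scaling, the 2 highest libraries were replicates 1 and 3 in 991 genes, replicates 2 and 4 in 1008, replicates 3 and 4 in 974 and replicates 1 and 2 in 947. Replicates 2 and 3 led in 611 genes, and replicates 1 and 4 in 541. Among the 991 genes, a gap as large as that of Trib3 was found in 1, Trib3 itself. Nothing is read from this, since Trib3 was chosen for being high in replicates 1 and 3.

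**Figure D2:**
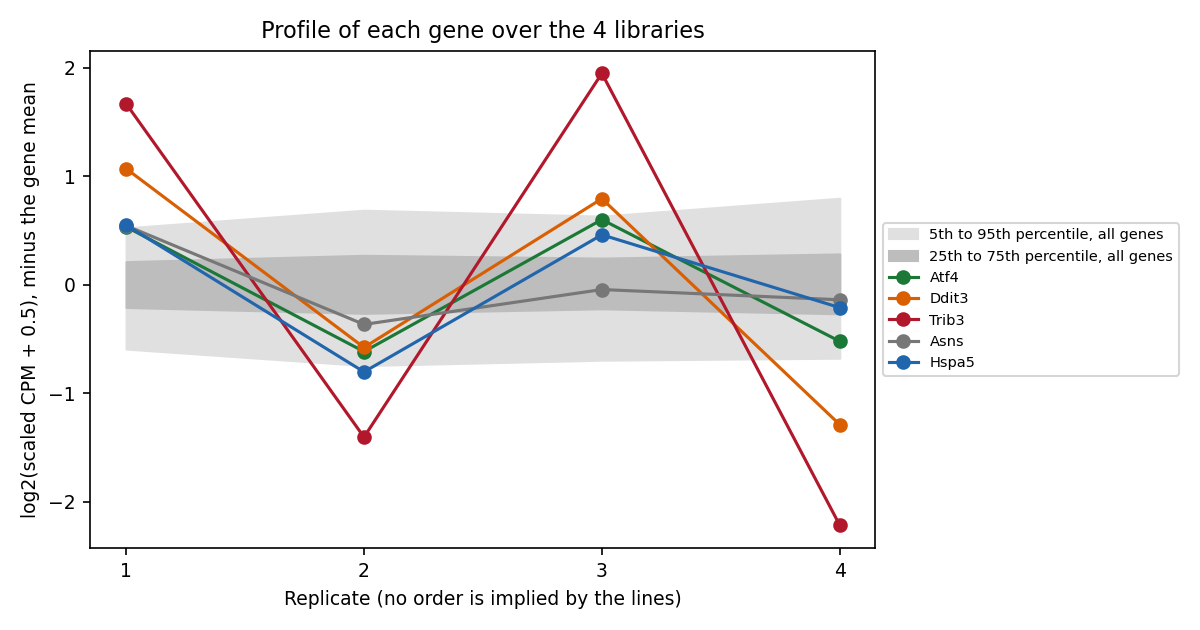
Centred profile of each gene, log2(TMM-scaled CPM + 0.5) minus its mean over the 4 libraries (vertical axis), in replicates 1 to 4 (horizontal axis); grey bands span the 5th to 95th and the 25th to 75th percentile of the 5072 genes at 20 CPM or more. Trib3 runs from 1.95 in replicate 3 to -2.22 in replicate 4, Ddit3 follows with a smaller range, and Hspa5 reaches its low of -0.80 in replicate 2.

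The genes differed in how deep the low libraries were. Trib3 and Ddit3 were lower in replicate 4 than in replicate 2: the TMM-scaled ratio of replicate 2 over 4 was 1.76 for Trib3 and 1.64 for Ddit3 (interval 1.28 to 2.13). Hspa5 went the other way, at 0.663 (interval 0.597 to 0.735). Atf4 was not distinguishable between the pair with this scaling, at 0.937 (interval 0.852 to 1.03), but with deposited totals its ratio was 0.731 (interval 0.665 to 0.804). The direction for Trib3, Ddit3 and Hspa5 was the same with each of the 4 scalings tried, although the interval for Ddit3 with deposited totals, 0.996 to 1.66, reached 1. Hspa5 thus shared its 2 high libraries with Trib3 but not the library in which it was lowest. Replicate 2 was also nominally the lowest library of Atf4 and Asns. The TMM-scaled ratio of replicate 2 over 4 for Asns was 0.850 (interval 0.453 to 1.60).

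Ratios of 2 genes within a library need no scaling between libraries. There were 0.831 counts of Trib3 for each count of Atf4 in replicate 1 (95% exact binomial interval 0.774 to 0.892) and 0.963 in replicate 3 (0.905 to 1.02). The ratio was 0.218 in replicate 2 (0.188 to 0.253) and 0.116 in replicate 4 (0.0925 to 0.144). Trib3 mRNA therefore varied 8.30-fold relative to Atf4 mRNA. The ATF4 protein, which acts on Trib3, was not measured. Relative to Hspa5, Trib3 varied 11.3-fold, from 0.119 in replicate 4 to 1.35 in replicate 3.

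Relative to Ddit3, Trib3 varied 4.24-fold. The count ratio was 2.91 in replicate 1 and 4.29 in replicate 3, and 1.08 in replicate 2 and 1.01 in replicate 4, so both genes had nearly equal counts in the low libraries. Ddit3 to Atf4 ran from 0.115 in replicate 4 (interval 0.0913 to 0.143) to 0.285 in replicate 1 (interval 0.257 to 0.316), a 2.48-fold range. Ddit3 to Hspa5 was 0.358, 0.291 and 0.314 in replicates 1 to 3 and 0.118 in replicate 4 (interval 0.0936 to 0.146), so replicate 4 alone stood low. The most even of the 8 ratios computed was that of Hspa5 to Atf4, which stayed between 0.691 in replicate 2 and 0.976 in replicate 4, a 1.41-fold range.

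**Figure D3:**
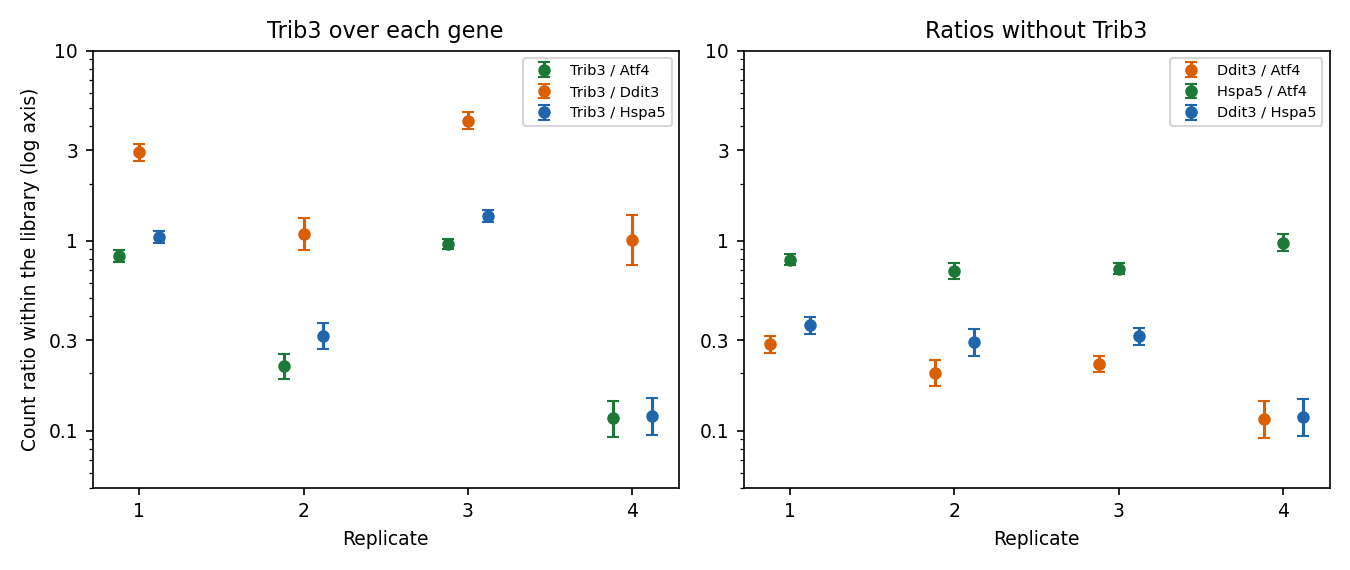
Ratio of the counts of 2 genes within a library (vertical axis, logarithmic) in replicates 1 to 4 (horizontal axis), with 95% exact binomial intervals. On the left, Trib3 over Atf4 falls as low as 0.116 and Trib3 over Hspa5 as low as 0.119, both in replicate 4; on the right, Hspa5 over Atf4 stays between 0.691 and 0.976.

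Setting a high library against a low one gave the widest ratio for Trib3 each time. For replicate 1 over 4 the TMM-scaled ratios were 14.9 for Trib3, 5.17 for Ddit3, 2.08 for Atf4 and 1.70 for Hspa5, and for replicate 3 over 4 they were 18.1, 4.26, 2.18 and 1.59. Against replicate 2, where Hspa5 was lowest, the ratio of replicate 1 was 8.45 for Trib3, 3.15 for Ddit3, 2.22 for Atf4 and 2.56 for Hspa5. That of replicate 3 was 10.3, 2.59, 2.33 and 2.40 in the same gene order. Trib3 and Ddit3 therefore held the first and second place in all 4 pairs, and Atf4 and Hspa5 changed places between those with replicate 4 and those with replicate 2. These pairs share libraries and are not separate observations. Nothing is read from the first place of Trib3, since it was chosen for being high in replicates 1 and 3. Between replicates 1 and 3 themselves the ratios ran only from 0.824 for Trib3 to 1.52 for Asns, and the median gene at 20 CPM or more differed 1.25-fold there.

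**Figure D4:**
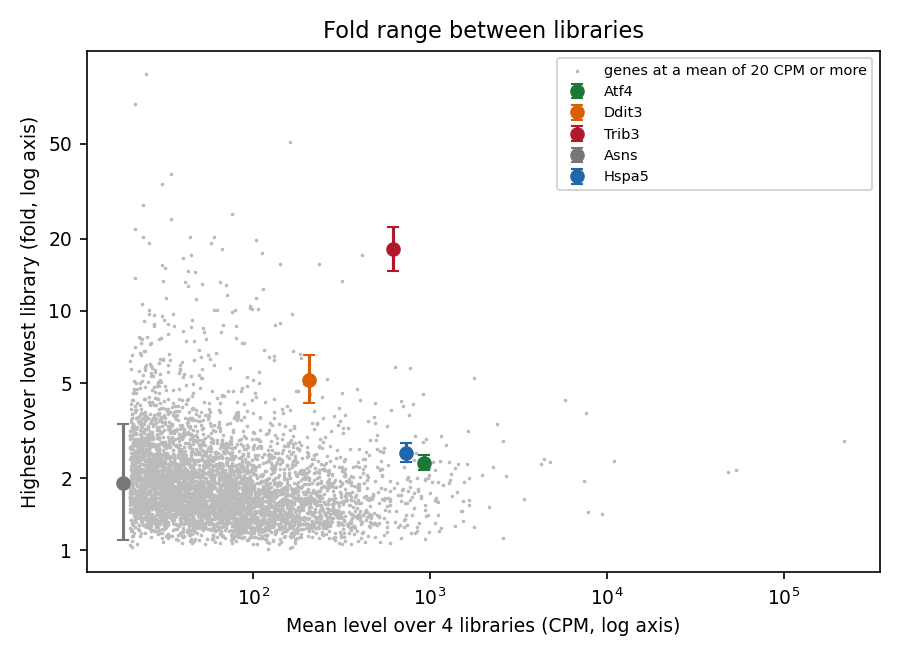
Highest over lowest library after TMM scaling (vertical axis, logarithmic) against the mean level in CPM (horizontal axis, logarithmic); grey points are the 5072 genes at 20 CPM or more and coloured points are the 5 genes, with 95% exact binomial intervals of the fold. Trib3, at 18.1, lies above the other genes near its level, Ddit3, at 5.17, near the upper edge, and Atf4, Hspa5 and Asns among the bulk.

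Likeness to Trib3 was measured as the root-mean-square difference over the 4 libraries between centred log2(TMM-scaled CPM + 0.5) profiles, so that a small value means similar direction and size. Among the 5071 other genes at 20 CPM or more, Ddit3 was the 7th most like Trib3, at 0.900, Atf4 ranked 56th, at 1.29, and Hspa5 128th, at 1.40, where the median over all genes was 1.85. When each profile was scaled to the same size, so that direction alone counted, the ranks were 73 for Ddit3, 98 for Atf4 and 489 for Hspa5. From the Atf4 profile the difference was 0.195 for Hspa5, 0.395 for Asns and 0.479 for Ddit3, where the median over genes at 20 CPM or more was 0.636. Among the 7570 other genes with 40 counts or more, Hspa5 ranked 88th by likeness to Atf4, Asns 831st and Ddit3 1553rd. Size enters these ranks, and ranks by direction alone were not computed from the Atf4 profile. In replicates 1 to 4 the centred profile of Ddit3 was 1.07, -0.577, 0.794 and -1.29. That of Asns was 0.546, -0.365, -0.0432 and -0.138, from only 21 to 35 counts per library. The order of Asns and Ddit3 therefore does not tell which was closer to Atf4 in direction. With 4 libraries no correlation was computed, and these ranks describe the libraries at hand.

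The genes most like Trib3 were ENSRNOG00000014387.4 and ENSRNOG00000007601.4. The first stood at 46.7, 9.004, 65.2 and 6.90 CPM in replicates 1 to 4, a difference of 0.452 from the Trib3 profile. The second stood at 202, 34.0, 126 and 21.5 CPM, a difference of 0.611. Both were high in replicates 1 and 3 and lowest in replicate 4, as Trib3 was. The profiles closest to the mirror image of Trib3 were those of ENSRNOG00000022256.6 and ENSRNOG00000013521.5. The former was at 5.36, 33.0, 5.99 and 78.4 CPM in replicates 1 to 4, and the latter at 4.60, 32.0, 1.80 and 47.4 CPM, so both were lowest in the libraries in which Trib3 was high. No symbol was available for these IDs, which were picked out of all genes for these values.

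Against counting noise, 4 of the 5 genes, all but Asns, varied between libraries by a chi-square test on counts with edgeR's TMM library sizes (Benjamini-Hochberg adjusted p under 0.05), as did 65.7% of the 7571 genes tested. With deposited totals in place of edgeR's TMM sizes, Asns passed as well (adjusted p = 0.0271, against 0.0946). Against the trend of genes of like abundance in edgeR's quasi-likelihood fit, Trib3 was past the threshold and the other 4 genes were not, where 0.0647% of 6186 genes were. Nothing is read from either count, since Trib3 was chosen on the same values.

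The libraries held 1160202 to 1999175 gene counts, so that 1 count was worth 0.5002 to 0.862 CPM. The 2 low libraries of Trib3 were the deepest, replicate 2, and the shallowest, replicate 4. The most abundant gene took 20.8% and 20.4% of gene counts in replicates 1 and 3, between the 31.9% of replicate 2 and the 14.3% of replicate 4. Uniquely aligned reads assigned to no gene made up 38.3% in replicate 1 and 34.9% in replicate 3, and 34.4% and 35.7% in replicates 2 and 4. Reads overlapping more than 1 gene were fewest in replicates 1 and 3, at 0.0362% and 0.0381% of uniquely aligned reads, against 0.0385% and 0.0544% in replicates 2 and 4, and the part of this in the result was not tested. Replicates 1 and 3 were also the closest pair over all genes, with a biological coefficient of variation (the spread beyond counting noise) of 0.219 in edgeR, against 0.257 to 0.328 for the other 5 pairs.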

How the data were processed

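RNA of 4 preparations of untreated FRT cells was sequenced from the 3' end (QuantSeq kit, single reads, per the labels' protocols). The authors deposited raw counts per Ensembl gene ID, made with STAR and HTSeq on rn6 per the submitters' processing notes. Versions, annotation release, strand setting and use of molecular identifiers remain not given in the sources used here, so copies made by amplification may be counted, and intervals cover counting error only. Summary lines were left out of library totals.

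CPM are counts per 1000000 gene counts. TMM library sizes and quasi-likelihood dispersions came from edgeR 4.0.16, size factors from DESeq2 1.42.0 (R 4.3.3). The chi-square test, on 3 degrees of freedom, took genes with at least 40 counts in all. Intervals are exact at 95% for counts fixed beforehand. Those of fold ranges treat the highest and lowest library as if fixed beforehand, so their coverage is not exact. Background shares and likeness used genes averaging 20 CPM or more, with a pseudocount of 0.5 CPM. The chi-square test was tried on simulated counts. These held counting noise only, or 2-fold and 4-fold changes in 1 library besides. Alternatives were 3 other scalings, other minimums, another pseudocount, profiles of equal size and leaving out each library.

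The members and lists were chosen with earlier results of these data known. The genes named are the members and, by likeness to Trib3, the 2 nearest and the 2 nearest its mirror image. Lists of further ATF4 targets, synthetases, kinases, ER chaperones, heat shock and p53 genes, and cell type markers, were not analysed here, because the Ensembl column of the RefSeq table (GRCr8) was empty for all 47357 genes. Chi-square p-values set the spread between these preparations against counting noise. The edgeR trend sets it against the spread of genes of like abundance. The spread itself may be technical.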

Additional observations from a re-analysis of the deposited data

Results flagged for a closer look

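Of 18 sets of 4 values, 1 value per library, 1 set held a library standing apart by Dixon's criterion, which chance passes in about 1 set in 20. It was the share of uniquely aligned reads overlapping more than 1 gene, at 0.0544% in replicate 4 and 0.0362% to 0.0385% elsewhere, a gap of 0.873 of the range. No level of the 5 genes and no ratio between them passed. The nearest was the ratio of Ddit3 to Hspa5, low in replicate 4, with a gap of 0.722. The criterion looks for 1 library standing apart. Levels that form a high pair and a low pair, as those of Trib3 do, therefore cannot pass it. Uniquely aligned reads assigned to no gene, 35.8% on average over the 4 libraries, were outside the gene comparisons, and whether they include tags of the 5 genes was not tested.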

How the results depend on the processing

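No paired analysis was possible because all samples form a single group. With a minimum of 400 counts, 1877 genes in place of 4973 varied beyond counting noise, as fewer were tested. Against the edgeR trend of genes of like abundance 4 genes did, and 1 of the 5 genes described in place of 4; that setting changes the null hypothesis. In the test against counting noise with edgeR's TMM sizes, Asns had an adjusted p of 0.0946, and over the 8 alternatives in which it was tested from 0.0271 with deposited totals, where it passed, to 0.712 without replicate 1. Asking for a gap of 1.5 times lowered the share of genes with replicates 1 and 3 highest from 19.5% to 2.43%. With that gap, chosen together with another scaling after seeing the data, the share was 2.03% with deposited totals (3 of the 5 genes), 2.44% with DESeq2 size factors and 2.60% without the 20 most abundant genes (4 of 5 each). Deposited totals moved the fold range of Atf4 to 2.59 and of Hspa5 to 2.99. Leaving out a library gave fold ranges of 1.27 to 1.93 for Asns, of 2.18 to 2.35 for Atf4, of 3.18 to 5.17 for Ddit3, of 1.70 to 2.59 for Hspa5 and of 10.4 to 18.1 for Trib3. Ranks of likeness to Trib3 for Ddit3, Atf4 and Hspa5 were 13, 157 and 315 with all genes of 40 counts or more, 2, 17 and 38 among genes at 100 CPM or more, and 73, 98 and 489 by direction alone. The first pair of changes came with other sets of genes ranked. Whether the number or the kind of those genes accounts for the changes was not tested. The third follows from leaving size out. Asns, under 20 CPM, ranked 1355th of 7570 with all genes of 40 counts or more. Depth limits what can be said of Asns, at 21 to 35 counts per library.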

Other observations

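The 5 genes together took 0.380% of gene counts in replicate 1 and 0.362% in replicate 3, against 0.107% in replicate 2 and 0.153% in replicate 4. Trib3, which gave about as many counts as Ddit3 in replicates 2 and 4, outnumbered Hspa5 in replicate 3, where the count ratio was 1.35 (95% exact binomial interval 1.26 to 1.44). The counts of Asns stayed at 0.0130 to 0.0265 of those of Atf4, and this ratio was lowest in replicate 3 (interval 0.00855 to 0.0190), the library in which Atf4 was highest after TMM scaling, though the intervals of all 4 libraries overlapped.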
